A study of Mus musculus with 14 samples.

Results

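Moxd1 (ENSMUSG00000020000) is a single gene on mouse chromosome 10, and it was followed here in the liver of 14 mice. It was found by its symbol, as 1 of 37681 genes in the table, and was chosen by its measured difference between the diets in these libraries. Livers came from 7 mice on food rich in fat and sucrose (HFHS, for high fat/high sucrose) and 7 on food poor in both (LFLS, for low fat/low sucrose). Each mouse gave 1 library of polyadenylated RNA. Apart from the sample titles the groups differed in no other label, and the labels gave no genotype, strain, sex, age or length of feeding. Libraries are named by diet and a number given in accession order. Sample titles began with 1 for libraries 1 to 4 of each diet and with 2 for libraries 5 to 7, and the labels do not say what this title number marks.

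The protein encoded by Moxd1 belongs to a small family of copper-dependent monooxygenases that use ascorbate as the electron donor. Its relatives are dopamine beta-hydroxylase (Dbh), which makes noradrenaline from dopamine in nerve and adrenal cells, and peptidylglycine alpha-amidating monooxygenase (Pam), which matures peptide hormones in the secretory pathway. Moxd1 itself resides in the endoplasmic reticulum, and its natural substrate is not established.

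The stretch of 250 bases before the annotated start of Moxd1, chr10:24223267-24223516 on the plus strand of GRCm38.p6 in RefSeq, is shown because the level of this transcript is the subject throughout. The counts were made on an older build, mm9, and say nothing of which start was used. Capitals mark matches to the GC box letters GGGCGG and to TTCNNNGAA, the palindrome that STAT5 proteins recognise.
Moxd1 promoter: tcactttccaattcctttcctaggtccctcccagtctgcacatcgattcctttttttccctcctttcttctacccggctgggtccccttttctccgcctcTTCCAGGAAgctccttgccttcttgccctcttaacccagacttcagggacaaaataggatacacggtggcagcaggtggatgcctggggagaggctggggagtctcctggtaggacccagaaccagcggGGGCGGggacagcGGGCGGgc
Both strands were searched. The GC box letters occurred at 2 places, and 32.7% of 32851 RefSeq promoters of this length held them. TTCNNNGAA occurred at 1 place, against 7.02% of promoters. The CCAAT letters occurred at 1 place, against 33.8%. No TATAAA and no ATCAAT, a core of HNF6 motifs, were found, against 12.4% and 6.72% of promoters. The window was 58.4% G and C, and the median promoter 52.4%. These matches describe letters and not bound sites.

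The Moxd1 transcript was plainly present in every LFLS liver and close to the floor of the table in some HFHS livers. Levels are in CPM, the count scaled to a common library total, after TMM scaling, which adjusts totals for composition. On LFLS the level was 9.92 CPM in library 1, 102 in library 2, 8.26 in library 3, 98.3 in library 4, 74.1 in library 5, 21.5 in library 6 and 219 in library 7. On HFHS it was 0.0610 CPM in library 1, 0.298 in library 2, 1.40 in library 3, 2.53 in library 4, 0.492 in library 5, 0.667 in library 6 and 1.58 in library 7. LFLS 1 and 3 were the lowest of their diet and LFLS 7 the highest, and HFHS 1 was the lowest of all 14. The diets did not overlap, as the lowest LFLS library stood 3.26 times above the highest HFHS library. The LFLS mean was 76.1 ± 74.7 CPM (SD, n = 7), and the HFHS mean 1.00 ± 0.874 CPM (SD, n = 7). The medians were 74.1 and 0.667 CPM.

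**Figure D1:**
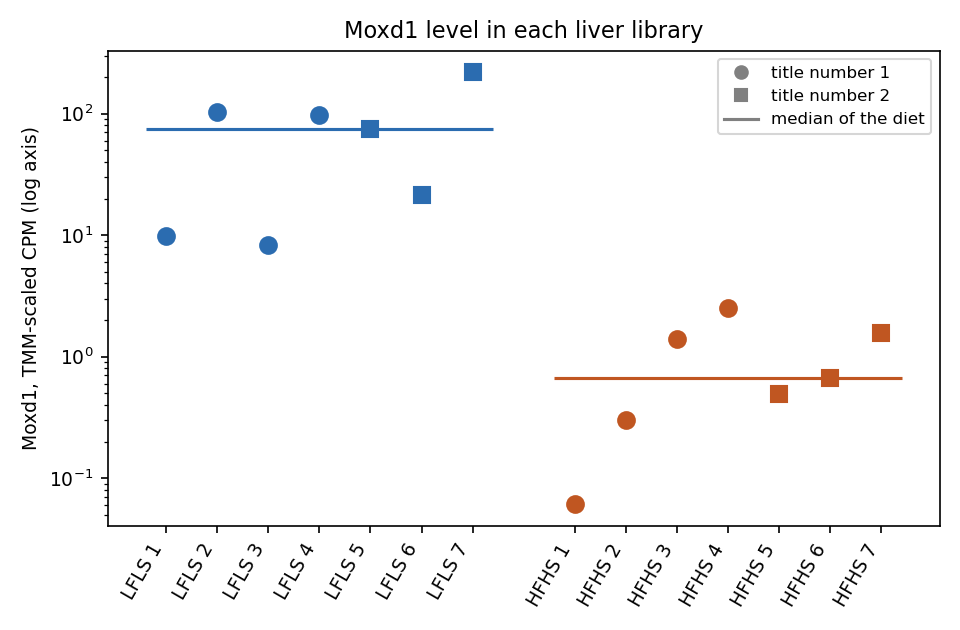
Moxd1 level in each library, in TMM-scaled CPM on a log axis, with circles for title number 1, squares for title number 2 and a line at the median of each diet. The 7 LFLS libraries lie between 8.26 and 219 CPM and the 7 HFHS libraries between 0.0610 and 2.53 CPM.

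Behind these levels stood 379 to 8669 deposited counts per LFLS library and 3 to 71 per HFHS library, out of library totals of about 18219300 to 52826700. The lowest value the table gives any gene is 1, so 1 may have been added to every count. HFHS 1, with 3 counts, would then have 2. As deposited, HFHS 1 had an unscaled share of 0.0661 CPM (95% exact Clopper-Pearson interval 0.0136 to 0.193). In HFHS 4 the share was 2.59 CPM (2.02 to 3.26), and in LFLS 3, the lowest of its diet by this measure too, 8.75 (7.97 to 9.58). The interval was 196 to 204 CPM in LFLS 7. These intervals cover counting error only, and the mice of either diet lay farther apart than they allow.

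The fitted difference, HFHS over LFLS, was -6.29 ± 0.87 (log2, SE, n = 7 per diet). It is a description without a test, because this contrast chose the gene. It was the most negative of 17223 tested genes. The next most negative were the acute phase gene Saa2 at -3.26 ± 0.97, Gm7030 and ENSMUSG00000072377, which carried identical counts, at -3.08 ± 0.80, Gm9574 at -3.07 ± 0.79 and the major urinary protein pseudogene Mup-ps20 at -2.91 ± 0.91. The counts of Gm9574 nearly repeated those of Gm7030, at 1066 against 1064 in LFLS 3 and 736 against 733 in LFLS 7. In these libraries Gm7030 stood at 19.0 and 18.5 CPM, while its median was 1.33 CPM on LFLS and 0.695 CPM on HFHS. Among the 5 genes next to Moxd1 in decrease, Gm9574 passed edgeR's quasi-likelihood test (Benjamini-Hochberg adjusted p 0.0495). It lost this call when any of 11 libraries was left out. In this comparison 2.81% of tested genes were called, 1.37% higher and 1.44% lower on HFHS. Over the same genes 19.6% had an unadjusted p under 0.05, DESeq2 called 7.3% and limma voom 19%, and counts by these rules are to be read against those shares. The diets did not overlap, with HFHS lower, for 0.795% of genes and, with HFHS higher, for 0.854%. The calls were 236 higher and 248 lower (48.8% higher), or 379 and 152 (71.4% higher) with library totals in place of TMM. In the authors' deposited table the log2 ratio of Moxd1 was -6.44, for 2 groups that its columns call B and A without naming the diets. In bulk liver, fewer cells that make a transcript and less of it per cell cannot be told apart.

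The title number was not used to choose the gene, so it could be tested. Within LFLS the mean was 54.7 ± 52.7 CPM (SD, n = 4) for title number 1 and 105 ± 102 CPM (SD, n = 3) for title number 2. Within HFHS it was 1.07 ± 1.13 CPM (SD, n = 4) and 0.913 ± 0.583 CPM (SD, n = 3). The difference of number 2 from number 1 with diet as a covariate was 0.58 ± 0.75 (log2, SE), and it did not pass edgeR's quasi-likelihood test (Benjamini-Hochberg adjusted p 0.579). By the same test 28.8% of all genes were called between the title numbers. Without LFLS 7 the Moxd1 value was -0.16. The difference between diets differed between title numbers by -1.12 ± 1.69 (log2, SE), with an adjusted p of 0.721 by edgeR's quasi-likelihood test, where 0.883% of genes were called.

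Moxd1 varied widely among mice that ate the same food. The SD of its log2 CPM (prior count 2) was 1.833 over LFLS and 1.497 over HFHS, where the median tested gene had 0.35 and 0.21. Among 14798 genes whose mean reached 1 CPM these SDs stood at percentile 99.5 in either diet. These genes were not matched to Moxd1 in level. On HFHS it had 3 to 71 deposited counts per library, so counting error adds to its SD there. A larger SD than that of Moxd1 in both diets was found for 40 genes.

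**Figure D2:**
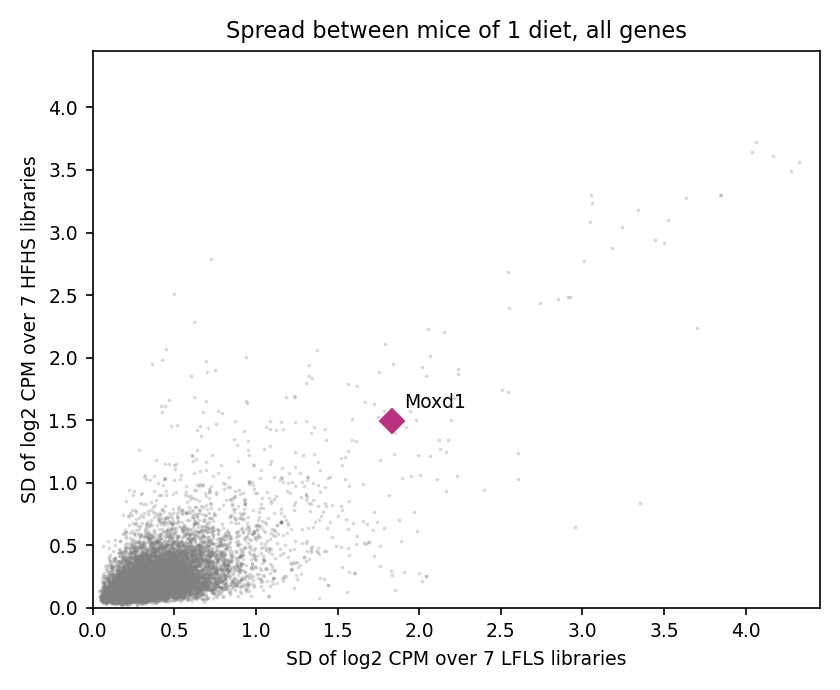
SD of log2 CPM over the 7 LFLS libraries (horizontal) and over the 7 HFHS libraries (vertical) for each gene whose mean reached 1 CPM, with Moxd1 as a diamond. Moxd1 lies at 1.833 and 1.497, outside the cloud that holds most genes.

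To find genes that followed Moxd1 without using the contrast between diets, each diet's mean was subtracted from log2 CPM. Pearson's r with Moxd1 was then taken over the 14 libraries. It is a description, and the libraries share depth, title number and tissue makeup. The highest r belonged to Gfra1, a co-receptor for GDNF family ligands, at 0.917. Its rank was 1 to 5 when single libraries were left out, but 18 by Spearman's rho, 79 within LFLS alone and 49 within HFHS alone. Tspyl4, of the nucleosome assembly protein family, followed at 0.909, then 8430419L09Rik at 0.890, Mup16, a major urinary protein gene, at 0.886, the splicing factor gene Hnrnpm at 0.882 and Pdia5, a protein disulfide isomerase of the endoplasmic reticulum, at 0.880. The others of the highest 12 were the integrin gene Itga10 (0.870), Bbs9 of the ciliary BBSome (0.867), 9530008L14Rik (0.862), the tetraspanin gene Tspan4 (0.860), Cpox of haem synthesis (0.859) and Nnmt, which methylates nicotinamide (0.857). Mup genes are near-identical copies, so the value of Mup16 is uncertain.

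All 12 genes lay below the mean of the diet in LFLS 1, LFLS 3 and HFHS 1, the libraries where Moxd1 was lowest of its diet. They were chosen for their r over these same libraries, which favours such a match, so it only describes them. LFLS 1 and LFLS 3 had the lowest mitochondrial shares of all libraries, at 1.39% and 2.49% of counts. They also had the highest correlations of gene deviations with GC content, at 0.55 and 0.334. HFHS 1 stood at 4.30% and 0.191. LFLS 3 and HFHS 1 had the largest totals, at 52826700 and 45409900 counts. The part of library quality in these shared low values was not tested. Gfra1 stood at 257 CPM in LFLS 1, 383 in LFLS 2, 224 in LFLS 3, 330 in LFLS 4, 415 in LFLS 5, 343 in LFLS 6 and 460 in LFLS 7. On HFHS it stood at 117, 152, 192, 218, 183, 202 and 217 CPM in libraries 1 to 7. Its lowest and highest LFLS libraries were those of Moxd1, as were its lowest and highest HFHS libraries. With the means of each diet and title number subtracted, r ranged from 0.847 to 0.966 over the 12 genes. Within LFLS alone it ranged from 0.823 to 0.991 and within HFHS alone from 0.668 to 0.970. Of the 50 genes with the highest r, 15 were among the highest 50 in LFLS alone and 5 in HFHS alone, so the order of genes depended on which libraries were used.

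**Figure D3:**
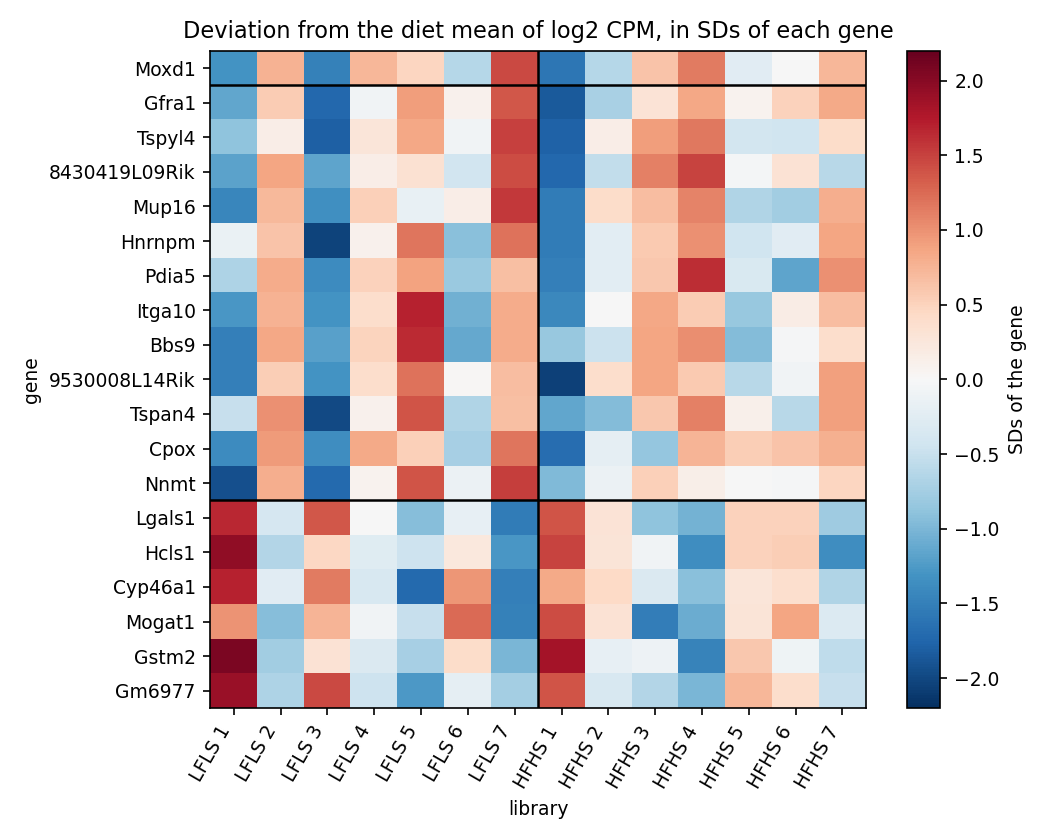
Deviation of log2 CPM from the mean of the diet, in SDs of each gene, for Moxd1 (top), the 12 genes with the highest r and the 6 with the lowest r (rows), over the 14 libraries (columns). Most of the 12 rows are blue in LFLS 1, LFLS 3 and HFHS 1, as Moxd1 is, and the 6 lowest rows are red in LFLS 1 and HFHS 1.

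Genes that followed Moxd1 within diets were mostly lower on HFHS. This contrast was not used to rank them. Of the 12 genes 11 had a negative difference, 4 were called lower and 0 higher, and of the highest 50 genes 46 were negative, 12 were called lower and 0 higher. Among all genes whose mean reached 1 CPM, 3.09% were called, 1.62% lower and 1.47% higher, and 52.3% had a negative difference. The median difference was -0.69 (log2) over the 12, -0.64 over the 50 and -0.01 over all. Gfra1 fell from 345 ± 83.8 to 183 ± 37.1 CPM (SD, n = 7 per diet), a change of -0.91 ± 0.17 (log2, SE) with an adjusted p of 0.0140 by edgeR's quasi-likelihood test, and it stayed called whichever 1 library was left out. By the same test Pdia5 (-0.93 ± 0.19, adjusted p 0.0180), Tspyl4 (-1.30 ± 0.28, 0.0252) and Itga10 (-0.92 ± 0.22, 0.0369) fell as well. Pdia5 lost its call without HFHS 2, 5 or 6, Tspyl4 without those or LFLS 7, and Itga10 when any of 9 libraries was left out. The call of Gfra1 was lost in the 8 libraries of title number 1 alone.

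The remaining 8 of the 12 genes did not pass the test. Hnrnpm (-0.06 ± 0.08, log2, SE), 9530008L14Rik (-0.02 ± 0.14) and Cpox (0.10 ± 0.12) had differences near 0 between diets while their r with Moxd1 within diets was at least 0.859. Nnmt (-1.001 ± 0.38) and Mup16 (-1.31 ± 0.56) had larger differences with wide errors. Tspan4 was at -0.47 ± 0.13, 8430419L09Rik at -0.26 ± 0.10 and Bbs9 at -0.21 ± 0.15.

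Opposite to Moxd1 ran Lgals1, which encodes galectin-1, with the lowest r at -0.914. Hcls1, a gene of blood cells, had -0.880, Cyp46a1, a cholesterol hydroxylase gene, -0.877, Mogat1, an enzyme of triglyceride synthesis, -0.869, the glutathione transferase gene Gstm2 -0.860 and Gm6977 -0.858. Mogat1 stood at 3.13 CPM in LFLS 6 and 0.807 in LFLS 7, its extremes on LFLS, and at 13.6 CPM in HFHS 1 and 3.29 in HFHS 3, its extremes on HFHS. Of these 6 genes Mogat1 (2.01 ± 0.35, log2, SE) and Lgals1 (1.26 ± 0.32) rose on HFHS, with adjusted p values of 0.00943 and 0.0495 by edgeR's quasi-likelihood test. Lgals1 lost its call when any of 11 libraries was left out and with library totals alone. The other 4 differed by 0.13 to 0.80 and were not called.

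Without subtracting diet means, the likeness also holds the contrast that chose Moxd1. The 12 genes with the highest r over all 14 libraries had 0.928 to 0.968 and were all called lower on HFHS, a count that the shared contrast favours. They shared 4 genes with the 12 above, namely Gfra1, Pdia5, Tspyl4 and Itga10. The others were Apom, an apolipoprotein of high density lipoprotein (-0.89 ± 0.14, log2, SE), Gm17321 (-1.36 ± 0.24), the signal recognition particle receptor gene Srpr (-0.26 ± 0.07), Gm16277 (-0.91 ± 0.18), the translation factor gene Ctif (-0.52 ± 0.09), the complement gene C2 (-0.41 ± 0.08), the glutamate receptor gene Grm8 (-1.73 ± 0.31) and the serpin gene Serpina11 (-0.83 ± 0.16). Apom had an r of 0.854 after subtraction of the diet means and 0.985 within HFHS alone. Without single libraries Srpr lost its call in 12 cases, C2 without HFHS 2, 5 or 6 and Gm16277 without HFHS 2 or 5.

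In mouse liver many genes differ between the sexes because pulsatile growth hormone, the male pattern, activates STAT5b in bursts. A list of 33 male-biased genes was set beside Moxd1. Of 29 members whose mean reached 1 CPM, 18 (62.1%) had a diet-centred r above 0.5 and 0 had an r under -0.5, against 14.1% and 14.1% of all genes. Several of the 18 are related Mup genes that may share reads, so they do not count as separate members. The median r was 0.70, and -0.04 over all genes. Among 14 hepatocyte markers 5 (35.7%) had an r above 0.5 and 1 under -0.5, with a median of 0.37. The highest members, chosen after their values were seen, were Egfr, the epidermal growth factor receptor (0.855), Selenbp2 (0.842), Cyp7b1, an oxysterol hydroxylase (0.831), and the complement genes C6 (0.807) and C8b (0.807). Earlier results of these data had already shown this list lower on HFHS, so its direction between diets adds no separate evidence.

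Of 31 tested male-biased genes edgeR called 0 higher and 4 lower, against 1.37% and 1.44% of all genes. The other 27 were not called, and the median difference of the list was -0.99 (log2) against -0.01 over all genes. By DESeq2 0 rose and 16 fell, where 7.3% of all genes were called, and by limma voom 0 rose and 15 fell, where 19% were. The genes that fell were Gstp1 (-1.14 ± 0.22, log2, SE), Gstp2 (-1.69 ± 0.36), Cspg5 (-1.74 ± 0.39) and Selenbp2 (-1.002 ± 0.24), with adjusted p values of 0.0148 to 0.0395 by edgeR's quasi-likelihood test. Gstp1 and Gstp2 are near-identical glutathione transferase genes. Gstp1 alone of the 4 stayed called whichever 1 library was left out. Their r with Moxd1 was 0.340, 0.258, 0.360 and 0.842. Egfr (-1.08 ± 0.35), Cyp7b1 (-1.30 ± 0.38), C6 (-1.15 ± 0.30) and C8b (-1.33 ± 0.35) were not called. They were called lower in 2, 4, 6 and 8 of 25 alternatives, DESeq2 and limma voom among them for each.

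The mean log2 CPM of the male-biased list was compared with Moxd1 within each diet, in a family of 36 relations. Over the 7 LFLS libraries Pearson's r was 0.833 (exact permutation p 0.0127, two-sided, Benjamini-Hochberg adjusted 0.0762) and Spearman's rho 0.714 (0.0881, adjusted 0.396). Over the 7 HFHS libraries r was 0.875 (exact permutation p 0.0103, adjusted 0.0762) and rho 0.821 (0.0341, adjusted 0.288). Neither passed the adjustment. Without LFLS 1 and 7, the libraries farthest from the median of the list, r was 0.666, and without HFHS 1 and 6 it was 0.794. The mean of the hepatocyte markers gave r of 0.666 over LFLS (exact permutation p 0.115, adjusted 0.345) and 0.761 over HFHS (exact permutation p 0.0446, adjusted 0.230). The part of hepatocyte content in the likeness to male-biased genes was not tested. A title number holds 4 or 3 libraries of a diet, too few for a value within it.

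**Figure D4:**
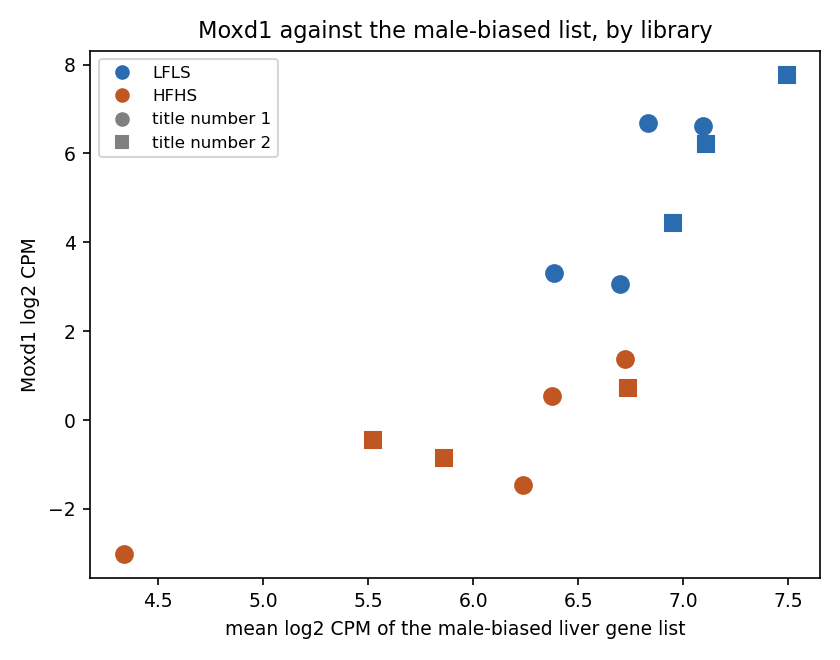
Moxd1 log2 CPM (vertical) against the mean log2 CPM of the male-biased gene list (horizontal) in each library, coloured by diet, with circles for title number 1 and squares for title number 2. HFHS 1 is lowest on both axes, and LFLS 7 is highest on both.

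The median female-biased gene lay near 0 in its diet-centred likeness to Moxd1. Of 24 whose mean reached 1 CPM, 2 had an r under -0.5 and 2 above 0.5. The median was 0.01 and the range -0.815 to 0.569. The mean of the list gave r of 0.139 over LFLS (exact permutation p 0.7625, Benjamini-Hochberg adjusted 0.885). Over HFHS it gave -0.626 (exact permutation p 0.133, adjusted 0.367). Neither passed the adjustment. Of 26 tested 6 rose, 0 fell and 20 were not called, where edgeR called 1.37% of all genes higher and 1.44% lower. The median difference of the list was 0.57 (log2). DESeq2 called 9 higher and limma voom 12, and 0 lower, where 7.3% and 19% of all genes were called. Abcd2, a peroxisomal transporter gene, rose by 1.58 ± 0.29 (log2, SE, adjusted p 0.0118 by edgeR's quasi-likelihood test) and had an r of -0.758 with Moxd1. For Cyp2b9 (8.56 ± 1.24), Cyp2b10 (3.02 ± 0.57) and Rtn4 (0.71 ± 0.13), which also rose, r was -0.484, -0.016 and -0.259. Reads of Cyp2b9 and Cyp2b10 may be shared between these related genes. Cyp2b9 was the only called gene with a larger absolute change than Moxd1, and its LFLS mean was 0.177 CPM, near the floor of the table, where a fitted change depends on the prior count.

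Of 14 tested genes that carry the growth hormone signal 1 rose, 1 fell and 12 were not called by edgeR. Over all genes 1.37% were called higher and 1.44% lower. At an unadjusted p under 0.05 there were 6 of the 14, against 19.6% of all genes. Prlr, the prolactin receptor gene, rose by 0.83 ± 0.15 (log2, SE, adjusted p 0.0134 by edgeR's quasi-likelihood test), and Onecut1, the gene of HNF6, fell (-2.10 ± 0.52, adjusted p 0.0439), a call lost when any of 11 libraries was left out. Their r with Moxd1 was 0.424 and 0.176. Hnf4a differed by -0.51 ± 0.13 and Socs3 by -1.13 ± 0.30, neither called by edgeR. They were called lower in 5 and 8 of 25 alternatives, DESeq2 among them for both. Of the list DESeq2 called 1 higher and 4 lower, and limma voom 2 and 2, where 7.3% and 19% of all genes were called. Of 13 members whose mean reached 1 CPM, 1 (7.69%) had an r above 0.5 and 1 under -0.5. Over all genes 14.1% lay above and 14.1% under.

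Of the relatives of Moxd1, Pam was the one high enough to test. Its LFLS mean was 49.0 ± 4.08 CPM (SD, n = 7) and its HFHS mean 51.3 ± 7.12 CPM (SD, n = 7), a difference of 0.07 ± 0.09 (log2, SE) with an adjusted p of 0.730 by edgeR's quasi-likelihood test. Its libraries spanned 42.5 to 53.6 CPM on LFLS and 44.8 to 64.8 CPM on HFHS, and its diet-centred r with Moxd1 was -0.387. Dbh had 1 or 2 deposited counts in every library, and Moxd2 1 in each, which is the floor of the table, so neither was tested.

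Genes that handle the copper and the ascorbate this family needs were not called by edgeR, which called few of all genes. Of 22 copper genes and 13 ascorbate genes tested 0 passed edgeR's quasi-likelihood test in either direction, with medians of 0.01 and 0.05 (log2). At an unadjusted p under 0.05 there were 3 copper and 4 ascorbate genes. DESeq2 called 0 copper genes higher and 1 lower and 1 ascorbate gene higher, and limma voom 1 copper gene higher and 2 lower and 5 ascorbate genes higher. Over all genes the unadjusted share was 19.6%, that of edgeR 2.81%, that of DESeq2 7.3% and that of limma voom 19%. The copper genes with the smallest p were the chaperone gene Ccs (-0.28 ± 0.09, log2, SE), Heph (0.55 ± 0.18), Steap4 (-0.66 ± 0.30) and the metallothionein gene Mt1 (-1.05 ± 0.54). Those of the ascorbate list were Ugdh (0.41 ± 0.12), Ugp2 (0.62 ± 0.22), Gsto1 (0.21 ± 0.08) and the ascorbate transporter gene Slc23a1 (0.20 ± 0.09).

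Within LFLS the mean of the copper list rose with Moxd1. Its r was 0.971 (exact permutation p 0.000992, Benjamini-Hochberg adjusted 0.0179 over the 36 relations) and rho 0.893 (0.0123, adjusted 0.148). Without LFLS 1 and 3 r was 0.945. Over HFHS r was -0.390 (exact permutation p 0.384, adjusted 0.552) and rho -0.321 (0.498, adjusted 0.689). The difference between these correlations was not tested. Over both diets together, 5 of 22 members (22.7%) had a diet-centred r with Moxd1 above 0.5 and 4 (18.2%) under -0.5. Among all genes 14.1% lay above and 14.1% under. The members ranged from -0.689 to 0.769 with a median of 0.10. Mt1 (0.729) and Steap4 (0.652) lay above 0.5 and Heph (-0.523) under -0.5. These r values pool the diets, so they do not show how the members moved within LFLS.

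In the list for making and clearing catecholamines 9 of 13 genes were tested, of which 1 rose, 0 fell and 8 were not called. Over all genes edgeR called 1.37% higher and 1.44% lower. Maob, a monoamine oxidase gene, rose by 0.55 ± 0.11 (log2, SE, adjusted p 0.0204 by edgeR's quasi-likelihood test), a call lost without HFHS 2, 5 or 6. Of the list DESeq2 called 1 higher and 0 lower, and limma voom 2 and 1, where 7.3% and 19% of all genes were called. Maoa differed by 0.56 ± 0.22 and Sult1a1 by -0.30 ± 0.23, neither called. Th, Dbh, Pnmt and Slc6a2, which mark cells that make or take up catecholamines, were too low to test.

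The genes beside Moxd1 on chromosome 10 differed little between the diets. Of the 6 protein-coding genes on either side in RefSeq (GRCm38.p6, used for order only) 7 were tested, with differences of -0.18 to 0.48 (log2). Of these 0 were called by edgeR, against 2.81% of all genes. At an unadjusted p under 0.05 there were 3 neighbours, and DESeq2 called 2 and limma voom 3, all higher on HFHS, against 19.6%, 7.3% and 19% of all genes in either direction. Stx7, a syntaxin of endosomes and the nearest on one side, differed by 0.32 ± 0.10 (log2, SE) and Ctgf, a matricellular protein gene and the nearest on the other, by 0.37 ± 0.33. Beyond Ctgf stood Enpp1 (0.27 ± 0.10), Enpp3 (-0.18 ± 0.12), the mediator gene Med23 (-0.04 ± 0.10), the urea cycle gene Arg1 (-0.12 ± 0.19) and Akap7 (0.48 ± 0.14). Their r with Moxd1 within diets ran from -0.536 for Ctgf to 0.385 for Arg1. Beyond Stx7 stood the trace amine receptor genes Taar9, Taar8c, Taar8b, Taar8a and Taar7f, with at most 2 deposited counts in any library.

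**Figure D5:**
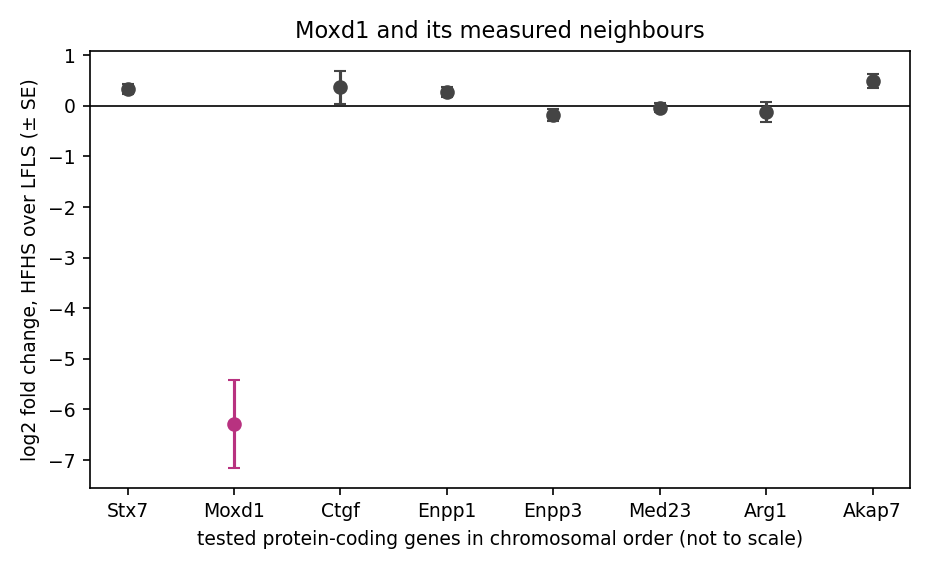
Log2 fold change of HFHS over LFLS with its SE for Moxd1 and the 7 tested neighbours in the order of the chromosome, not to scale. Moxd1 stands at -6.29, and the neighbours lie between -0.18 and 0.48.

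Markers of liver cell types and of tissues near the liver were examined beside Moxd1. By edgeR's quasi-likelihood test the called members were 0 of 14 for hepatocytes, 0 of 15 for stellate cells, 0 of 12 for sinusoidal endothelium, 0 of 12 for Kupffer cells, 0 of 11 for lymphocytes, 0 of 9 for mesothelium and 0 of 15 for exocrine pancreas. In bile duct epithelium 1 of 9 fell (Tff3, -2.57 ± 0.59), and among adipocyte genes 1 of 6 rose (Car3, 0.98 ± 0.19). No skeletal muscle gene was high enough to test. The call of Tff3 was lost when any of 10 libraries was left out. At an unadjusted p under 0.05 there were 8 hepatocyte, 3 stellate, 0 endothelial, 2 Kupffer, 2 lymphocyte, 2 mesothelial and 0 pancreas markers. DESeq2 called 6 hepatocyte markers and 1 Kupffer marker lower and no member of the other 5 lists. By limma voom 5 hepatocyte markers and 1 Kupffer marker were lower, and 1 stellate and 1 mesothelial marker were called in each direction. Of the 6 adipocyte genes 3 had an unadjusted p under 0.05. DESeq2 called 3 of them higher, and limma voom 2 higher and 1 lower. They summed to 834 to 2041 CPM on LFLS and 1797 to 2545 CPM on HFHS. Of the 9 bile duct genes 1 had an unadjusted p under 0.05, and DESeq2 and limma voom each called 1 lower. Over all genes 19.6% had an unadjusted p under 0.05, and edgeR called 2.81%, DESeq2 7.3% and limma voom 19%. Hepatocyte markers summed to 119800 to 150400 CPM on LFLS and 96770 to 138600 CPM on HFHS.

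Stellate cell markers ran against Moxd1 within HFHS, with r of -0.932 (exact permutation p 0.000794, Benjamini-Hochberg adjusted 0.0179 over 36 relations) and rho of -0.929 (0.00675, adjusted 0.148), and r of -0.977 without HFHS 1 and 7. Within LFLS r was -0.102 (exact permutation p 0.803, adjusted 0.896) and rho 0.036 (0.963, adjusted 0.991). HFHS 1, lowest in Moxd1, was highest in this list, with a mean log2 CPM of 5.22 against 3.82 to 4.24 in the other HFHS libraries. All 15 stellate markers were tested, and they summed to 389 to 547 CPM on LFLS and 458 to 1096 CPM on HFHS. The 9 mesothelial markers gave r of -0.930 within HFHS (exact permutation p 0.00317, adjusted 0.0381) and rho of -0.786 (0.0480, adjusted 0.288), with r of -0.709 without HFHS 1 and 4. Within LFLS their r was 0.455 (exact permutation p 0.292, adjusted 0.540) and rho 0.357 (0.444, adjusted 0.667). Of the 9 markers 6 had a mean of at least 1 CPM. Diet-centred r was under -0.5 for 0 of these, against 14.1% of all genes. These r values pool both diets, so they do not show the markers within HFHS alone. The 9 summed to 227 to 572 CPM on LFLS and 217 to 430 CPM on HFHS. Endothelial markers gave r of -0.838 within HFHS (exact permutation p 0.0123, adjusted 0.0762) and -0.441 without HFHS 1 and 4. Within LFLS they gave r of -0.410 (exact permutation p 0.342, adjusted 0.540). Without HFHS 1 the Moxd1 difference between diets was -6.03. The part of tissue makeup in the differences among HFHS mice was not tested.

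Measures of library quality did not pass a test against Moxd1 over the 7 libraries of either diet. LFLS 1 and LFLS 3, lowest in Moxd1 on LFLS, did have the lowest mitochondrial shares and the highest tilts with GC content. For total counts, the mitochondrial share, the exocrine pancreas share and the library's tilt with GC content, Benjamini-Hochberg adjusted exact permutation p values of r ran from 0.388 to 0.985 in either diet. The largest r was 0.614, for the mitochondrial share in LFLS, and it was -0.559 without LFLS 1 and 3. LFLS 2 carried the most pancreas transcript, 0.187% of counts, and without it the Moxd1 difference was -6.21.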

How the data were processed

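Livers of 14 mice were measured by sequencing polyadenylated RNA, 1 library per mouse. Per the submitters' processing notes CASAVA 1.8, TopHat, Bowtie and DESeq were used with build mm9. How reads were counted, with what annotation and whether by strand, is not stated in those notes or in the protocols. The deposited counts were whole numbers per Ensembl gene, never below 1, and 11100 genes stood at 1 in all libraries. The authors' results table held a DESeq fold ratio, its log2 and p-values, per the file headers. It served for gene names and the deposited Moxd1 ratio, and its group means were not used, as their headers name no diet.

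Counts were tested with edgeR 4.0.16 (R 4.3.3), TMM, its default low-count filter and the quasi-likelihood F test, with genes called at a Benjamini-Hochberg adjusted p under 0.05. SEs are the absolute log2 change over the square root of F. Alternatives used DESeq2 1.42.0 and limma 3.58.1. Without a filter, only genes at 1 in all libraries were dropped and the dispersion trend used loess if locfit failed. The scripts were tested on simulated data. Mice were taken as separate replicates, since the design names 14 mice.

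Named were the 12 genes with the highest and 6 with the lowest diet-centred r, the 12 with the highest uncentred r, the 6 largest decreases, 6 neighbours on either side and 4 members of each functional list with the smallest p. Of marker lists only called members were named, a narrowing made after values were seen, and 2 genes that the rule names are not reported here. Egfr, Cyp7b1, C6 and C8b, the promoter motifs and the GC measure were also chosen after values were seen. GC content came from GENCODE M21 transcripts for 94.9% of tested genes. The members and lists were chosen with earlier results of these data known.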

Additional observations from a re-analysis of the deposited data

Results flagged for a closer look

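In 142 groups of 7 libraries (71 named genes in 2 diets) an isolated highest or lowest library was looked for in log2 CPM. Of these groups 2 were flagged, a smaller share than the about 1 in 20 that chance flags. C2, the complement gene, was isolated at its highest in LFLS 7, the library with the most Moxd1, with a gap to the next library of 0.739 of the range. Egfr was isolated at its lowest in HFHS 1, the library with the least Moxd1, with a gap of 0.621 of the range. Both genes were named for a high r with Moxd1, so the match of libraries adds no separate evidence.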

How the results depend on the processing

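The lower Moxd1 level on HFHS kept its direction, and moved by less than the pooled SD between mice of 1 diet (1.67, log2), in all 25 alternatives. It ranged from -6.59 to -5.89 over 9 settings that kept all libraries, from -6.74 to -5.72 without 1 library, and was -5.74 and -6.89 within title numbers 1 and 2. Moxd1 values between title numbers ranged from -0.16 to 0.88 without 1 library, turning sign without LFLS 7 (-0.16), and the interaction from -1.68 to -0.04, none called.

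The number of genes called between diets, 484, depended on the setting. It was 173 with no filter, 1258 with DESeq2, 3274 with limma voom, 1484 and 269 within title numbers 1 and 2, and 133 (without HFHS 2) to 853 (without LFLS 6) without 1 library. With the title number as a replicate block it was 1540, and with pairs of titles as the block 598, where Moxd1 stood at -6.20 and -5.89. The main test held diet alone, and members of the lists were not counted with a block. Deviations of paired titles correlated at -0.13 to 0.51, over 0.1 in 4 of 7 pairs, so the titles were not taken as pairs.

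Of the 50 genes most like Moxd1, 30 were shared with Spearman's rho, 22 with diet and title number means subtracted, 15 and 5 within LFLS and HFHS alone, and 24 to 46 without 1 library. Gfra1 moved from rank 1 to 79 within LFLS alone. The cause of these shifts was not tested. Whichever 1 library was left out, 14 of 29 named called genes kept their call. Differences of uncalled genes near 0 changed sign. For 9530008L14Rik they were 0.030 with library totals alone, 0.12 in title number 1 and -0.080 to 0.061 without 1 library, positive without LFLS 2, 5 or 7 or HFHS 1 or 5. They were 0.010 for Med23 with library totals, 0.12 and 0.22 for Arg1 with limma voom and in title number 1, and 0.16 for Sult1a1 in title number 1. Gstm2 ranged from -0.074 (without HFHS 1) to 0.42 without 1 library.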
